A study of Mus musculus with 12 samples.

Results

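The diabetes by arctigenin (ATG) interaction asks, gene by gene, whether ATG moved glomerular mRNA by a different amount in diabetic than in nondiabetic mice. It was taken as the log2 change with ATG in diabetic mice minus the log2 change with ATG in nondiabetic mice, and all 12 mice and all 14096 listed genes entered it, which is every library and every gene of the series. A positive value means that the ATG effect was higher, or less negative, in the diabetic mice, and it does not by itself mean that ATG raised the gene there.

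Glomerular mRNA was sequenced from male eNOS-/- mice on the C57BL/6J background, with 3 mice in each of 4 groups. All 12 mice lacked endothelial nitric oxide synthase, so that no wild-type control enters the comparison. Diabetic mice had received streptozotocin (STZ), a toxin of pancreatic beta cells, at 8 weeks of age (50 mg/kg per day for 5 days), and nondiabetic mice citrate buffer in its place. Treatment began 10 weeks after induction and went on for 8 weeks, by daily oral gavage of ATG (40 mg/kg) or of its 5% DMSO vehicle, and tissue was taken at 18 weeks after induction. The groups are labelled Con_DMSO (nondiabetic, vehicle), Con_ATG (nondiabetic, ATG), DM_DMSO (diabetic, vehicle) and DM_ATG (diabetic, ATG).

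The glomerulus is a tuft of fenestrated capillaries held together by mesangial cells and covered by podocytes. Mesangial cells are contractile, pericyte-like cells that carry PDGF receptor beta and integrin alpha 8, make matrix, and answer to vasoactive signals, among them nitric oxide, which acts through soluble guanylate cyclase and cyclic GMP. ATG is a plant lignan that was studied here in diabetic kidney disease as an activator of the protein phosphatase PP2A.

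Each library held 23.6 to 29.8 M (mega) reads on these genes, and the Pearson correlation of log2 values between mice of one group was 0.972 to 0.994. The podocyte list had a mean log2 value of 12.69 to 14.27 in each mouse, as the tissue label requires. Proximal tubule genes were also high (9.66 to 13.23), and more so in nondiabetic than in diabetic mice. The protocol text of the series also has a cell sort after enzymatic digestion, on a fluorescent reporter, that is absent from the methods of the study, and the libraries are taken here as whole glomeruli. The first part of the mouse labels differs between the groups, so a batch that it may stand for cannot be told apart from the group. Mouse 3 of Con_DMSO and mouse 3 of Con_ATG have labels of another form, without a number. Their labels also differ in the first part from those of the other mice of their group, while each diabetic group has a single first part. Nothing in the labels says more about how the mice of a group relate, and p-values measure the spread between these mice. Values are log2 of scaled reads, not divided by transcript length, so levels are compared between mice and not between genes.

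Genes that passed with a positive interaction, among them mesangial, pericyte, endothelial, matrix and cytoskeletal genes, were lower with ATG in nondiabetic mice. In diabetic mice their changes with ATG ran from about 0 upward, without passing on their own. The choice of these genes by their interaction favours such a form. A total of 77 genes passed for the interaction (limma, Benjamini-Hochberg adjusted p under 0.05), which is 0.546% of the genes tested. Of these, 76 were positive (0.539%) and 1 was negative (0.00709%). The positive genes had a median interaction of 0.97 and ranged from 0.46 to 1.69, against a median of 0.015 over all listed genes. Unadjusted p was under 0.05 for 1812 genes (12.9%), 1357 positive (9.63%) and 455 negative (3.23%).

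The nondiabetic arm was the larger one in 71 of the 76 positive genes and the diabetic arm in 5, Skil and Ackr2 among them. In all 76 positive genes, the 3 Con_ATG mice lay below the 3 Con_DMSO mice, an order that 20% of all genes showed. In 70 of them the 3 Con_ATG mice lay below all 9 other mice (13.5% of all genes). In the diabetic arm, 27 of the 76 had the 3 DM_ATG mice above the 3 DM_DMSO mice (3.85% of all genes). Both orders use the values that the calls were made from, so they describe the form of the difference and do not add to it. The median change with ATG over the 76 genes was −0.76 (−1.34 to −0.31) in nondiabetic and 0.19 (−0.08 to 0.82) in diabetic mice.

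Tested alone, ATG changed 736 genes in nondiabetic mice (5.22%), of which 100 were higher and 636 lower (limma). With a median-ratio scaling of the libraries, these were 130 higher and 408 lower. The count fell to 44 with a tubule marker covariate and to 8 without both mice of unnumbered label, and with 1 mouse left out it ran from 60 (without Con_DMSO mouse 2) to 3531 (without Con_ATG mouse 2). In diabetic mice no gene passed (limma, lowest adjusted p 0.248), with 636 genes at an unadjusted p under 0.05 (4.51%), and limma-voom on recovered reads also gave 0. Of the 76 positive interaction genes, 72 passed for ATG in nondiabetic mice. The arms share no mouse, and across all genes their changes had a Pearson correlation of 0.299, which is a description over genes that are not independent replicates.

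**Figure D1:**
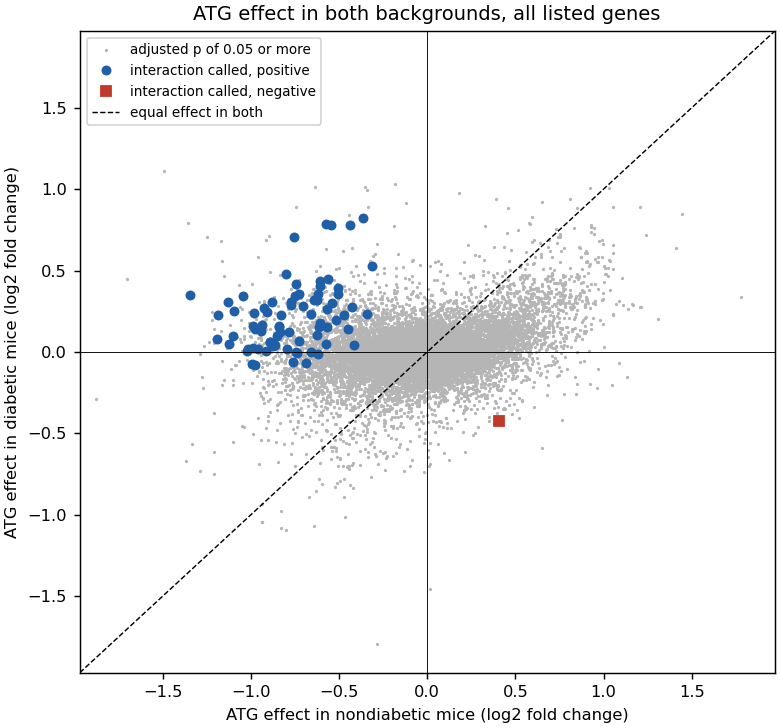
Log2 change with ATG in nondiabetic mice (horizontal axis) against that in diabetic mice (vertical axis), 1 point per listed gene, with genes that passed for the interaction in colour. The 76 positive genes lie left of 0 and above the dashed line of equal effect, with diabetic changes from −0.08 to 0.82, and the single negative gene lies at lower right.

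How many genes passed depended on single mice. With 1 mouse left out, between 6 and 770 genes passed. The highest count came without Con_ATG mouse 2, and 124 passed without DM_DMSO mouse 3. Without any other single mouse, 6 to 35 passed. All 76 positive genes stayed positive in each of the 12 fits, which the choice of the genes on these same mice largely fixes. Coro2a, Dock10, Pla2g4a, Scarf2, Lrp1 and Cd248 passed in all 12 (limma). Without the mice of unnumbered label, 6 genes passed, and Ackr2 stood in place of Dock10 among them.

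**Figure D2:**
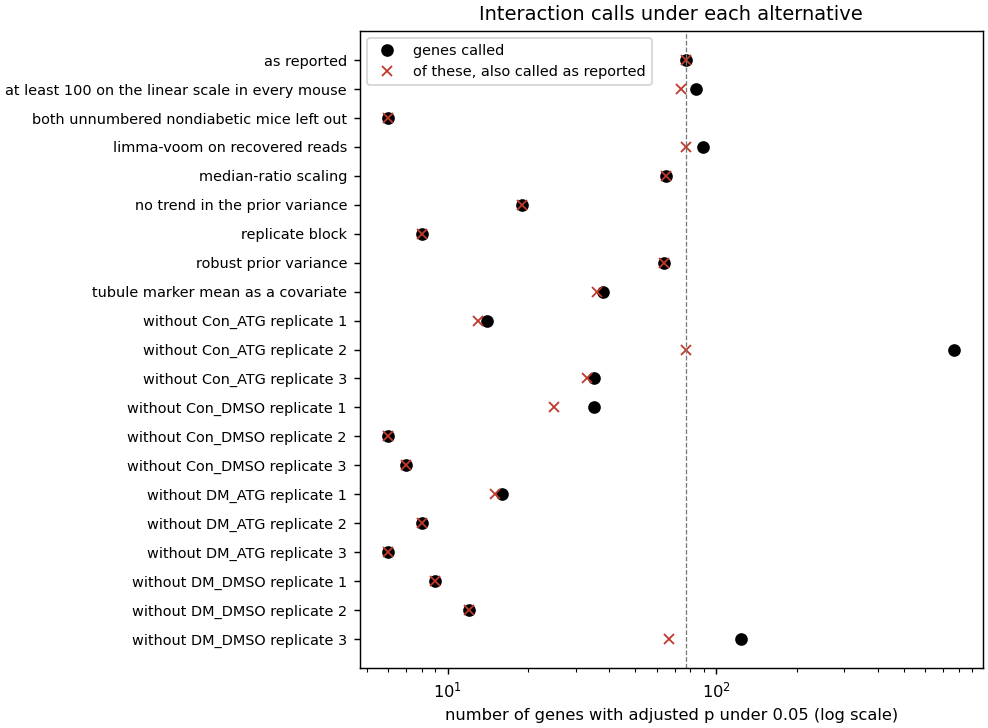
Number of genes that passed for the interaction (horizontal axis, log scale) under each alternative, with crosses for those also called as reported. The count ran from 6 to 770 over the 12 fits without 1 mouse and was 38 with tubule markers as a covariate.

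Tubule genes moved with the groups that set the interaction. The mean of the 35 proximal tubule genes was 13.23, 12.61 and 12.49 in the Con_ATG mice and 12.06, 11.47 and 12.34 in the Con_DMSO mice. In the diabetic mice it was 10.58, 10.87 and 9.66 with vehicle and 10.82, 11.23 and 10.30 with ATG. All 3 Con_ATG mice thus stood above the other 9, the mirror of the order seen in the called genes. With the mean of both tubule lists as a covariate, 38 genes passed, 36 of them among the 77. In bulk glomeruli, fewer cells of a type and less RNA per cell cannot be told apart. The interaction also shifted with transcript length, from a median of −0.11 in the shortest of 5 equal bins of genes to 0.12 in the longest, and the longest bin held 34 of the called genes (1.21% of that bin). The part of tubule content and of length in the calls was not tested beyond this.

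Genes of mesangial cells, pericytes and vascular smooth muscle led the cell type lists by median. Of the 22 listed genes of the mesangium list, 3 passed, all positive (Itga8, Pdgfrb and Art3), and 16 had an unadjusted p under 0.05. The median interaction of the list was 0.96, with a nondiabetic median of −0.80 and a diabetic median of 0.05. Of its members, 20 were above 0, while Pcolce (−0.14) and Plac8 (−0.09) were below it. The list mean was 11.04, 11.31 and 11.34 in Con_DMSO and 10.56, 10.54 and 10.30 in Con_ATG mice, and 11.08, 10.85 and 11.08 in DM_DMSO and 10.98, 11.19 and 10.998 in DM_ATG mice. The 3 Con_ATG mice were the lowest of the 12. Leaving out any mouse kept the list median between 0.84 and 1.04.

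Itga8 encodes the integrin alpha 8 chain of mesangial cells. It stood at 12.97, 12.86 and 13.27 in Con_DMSO, 12.07, 12.14 and 11.62 in Con_ATG, 12.77, 12.62 and 13.02 in DM_DMSO and 12.99, 13.21 and 12.97 in DM_ATG mice. The interaction was 1.34 (standard error 0.22, adjusted p = 0.0443, limma). The Con_ATG mice lay below all others, and the diabetic groups overlapped. Itga8 overlaps a noncoding gene on the opposite strand (E030013I19Rik, interaction 1.62, adjusted p = 0.123, limma), and use of strand in the counting is not given in the sources used here, so their reads may be shared.

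Pdgfrb, the receptor for PDGF-B that mesangial cells need to populate the tuft, had log2 values of 11.92, 12.03 and 12.27 in Con_DMSO and 11.03, 11.26 and 10.89 in Con_ATG mice. In the diabetic mice they were 11.82, 11.60 and 11.92 with vehicle and 11.60, 11.98 and 11.81 with ATG. The change was thus −1.01 in nondiabetic and 0.02 in diabetic mice, with an interaction of 1.03 (standard error 0.19, adjusted p = 0.0455, limma). Here ATG took the nondiabetic mice below the level of both diabetic groups, which overlapped one another. Art3, an ADP-ribosyltransferase family gene, had an interaction of 0.99 (adjusted p = 0.0489, limma) and overlaps Cxcl10 on the other strand (−0.57, adjusted p = 0.502, limma).

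Cd248, which encodes endosialin of pericytes and stromal fibroblasts (chromosome 19 of mm10, 5068078 to 5070639), stood at 10.68, 10.70 and 10.92 in Con_DMSO and 9.98, 9.74 and 9.61 in Con_ATG mice. With diabetes it was 11.003, 11.08 and 11.11 with vehicle and 11.24, 11.29 and 11.13 with ATG. No value was shared between any ATG group and its own vehicle group, and the order was opposite in both arms. The interaction was 1.15 (standard error 0.14, adjusted p = 0.0113, limma).

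Piezo2, a mechanically gated cation channel, had values of 10.84, 10.79 and 10.82 in Con_DMSO, 9.98, 10.12 and 9.84 in Con_ATG, 10.76, 10.72 and 10.91 in DM_DMSO and 10.73, 11.11 and 11.04 in DM_ATG mice (interaction 1.00, standard error 0.15, adjusted p = 0.0286, limma). Only its nondiabetic groups were apart. Called genes of this kind outside the naming rule, chosen here after their values were seen, were Notch3 (1.07), the cation channel gene Trpc4 (1.41), the connexin 37 gene Gja4 (1.08), the sarcomere gene Myom1 (1.15) and Nr2f1 (1.20). Members of the mesangium list that did not pass included the NG2 gene Cspg4 (0.94, adjusted p = 0.0564), Pdgfra (1.13, adjusted p = 0.0618), the desmin gene Des (0.93, adjusted p = 0.0936) and the angiotensin receptor gene Agtr1a (0.83, adjusted p = 0.108, all limma). Of 10 called genes put in this group after the values were seen, 4 passed with the tubule covariate, with a median interaction of 1.12 without and 1.05 with it. Itga8, Pdgfrb and Art3 did not pass with it, at 1.30, 0.97 and 0.94.

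**Figure D3:**
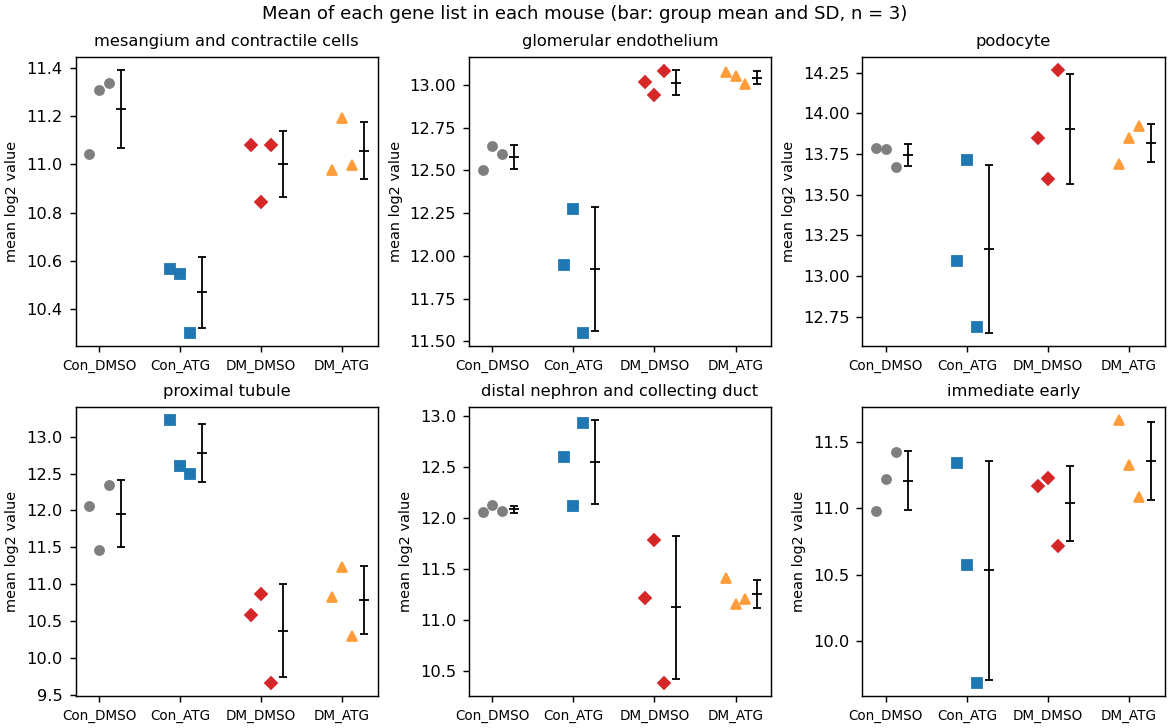
Mean log2 value of 6 gene lists in each mouse (points) with the group mean and SD (bars, n = 3). Con_ATG mice are lowest for the mesangium and endothelium lists and highest for the proximal tubule list, while podocyte and immediate early means of Con_ATG mice spread widely.

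Of the 28 genes of vasoactive systems, 2 passed (Pdgfrb and Gucy1b3), both positive, and 15 had an unadjusted p under 0.05, with a list median of 0.53. Gucy1b3, the beta subunit of soluble guanylate cyclase, stood at 10.40, 10.43 and 10.63 in Con_DMSO and 9.71, 9.60 and 9.35 in Con_ATG mice. It stood at 10.29, 9.91 and 10.31 in DM_DMSO and 10.08, 10.54 and 10.40 in DM_ATG mice. The Con_ATG mice lay below the rest, and the interaction was 1.10 (standard error 0.21, adjusted p = 0.0489, limma).

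Outside the naming rule, and picked after the values were seen, Gucy1a2, an alpha subunit of the same enzyme, had an interaction of 1.44 (adjusted p = 0.0455, limma). Pde5a, the phosphodiesterase that breaks down cyclic GMP, had 0.99 (adjusted p = 0.0455, limma). Mrvi1, a substrate of cyclic GMP-dependent kinase, had 0.95 (adjusted p = 0.0489, limma). Gucy1a3 had an interaction of 1.12 without passing (adjusted p = 0.121, limma). Nos2 (0.46, adjusted p = 0.350, limma), Npr1 (0.67, adjusted p = 0.441, limma) and Nos1 (0.14, adjusted p = 0.794, limma) did not pass either. The receptor genes Npy1r (1.22) and P2rx1 (1.27) and the phospholipase C gene Plcb3 (0.46) also passed. With the tubule covariate, 1 of these 7 called genes passed, with a median interaction of 1.10 without and 1.05 with it.

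Nos3, the gene disrupted in every mouse, still had reads. Its log2 values were 10.82, 11.26 and 10.95 in Con_DMSO, 10.67, 10.63 and 10.07 in Con_ATG, 11.39, 11.16 and 11.40 in DM_DMSO and 11.23, 11.35 and 11.25 in DM_ATG mice. The interaction did not pass (0.51, adjusted p = 0.365, limma). A value summed over the gene does not show which exons the reads came from.

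Matrix genes gave more calls than any other list. Of 36 listed collagen and matrix remodelling genes, 5 passed (Col6a3, Adamts10, Col12a1, Nid1 and Adamts5), all positive, and 16 had an unadjusted p under 0.05. The median interaction was 0.54, with −0.56 in nondiabetic and −0.07 in diabetic mice, and 15 members fell with ATG in nondiabetic mice (limma, adjusted p under 0.05). With the tubule covariate, 4 members of the list passed.

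Col6a3, a chain of the microfibrillar collagen VI, stood at 9.72, 9.97 and 10.01 in Con_DMSO, 9.21, 8.93 and 8.98 in Con_ATG, 9.88, 9.85 and 9.79 in DM_DMSO and 9.82, 9.87 and 9.95 in DM_ATG mice. Its interaction was 0.90 (standard error 0.14, adjusted p = 0.0332, limma). The 9 mice outside Con_ATG shared one range.

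Nid1 encodes nidogen 1, which links laminin and collagen IV in basement membranes. It was at 12.36, 12.30 and 12.47 in Con_DMSO and 11.55, 11.74 and 11.15 in Con_ATG mice, and at 12.63, 12.71 and 12.72 and 12.82, 12.70 and 12.74 in DM_DMSO and DM_ATG mice. The interaction was 0.95 (standard error 0.17, adjusted p = 0.0455, limma), and both diabetic groups lay above the vehicle-treated nondiabetic mice. Col12a1, a fibril-associated collagen gene, differed from these in its diabetic arm, which was 0.27 beside −0.57 in nondiabetic mice (interaction 0.83, adjusted p = 0.0455, limma).

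The protease genes Adamts5 and Adamts10 had interactions of 1.17 and 0.62. Other called matrix genes, chosen after their values were seen, were Bgn (biglycan, 0.92), the collagen receptor gene Ddr2 (1.12), Ecm1 (0.70), Mmp28 (1.01) and Sdc3 (syndecan 3, 0.80). The collagen IV genes did not pass, with 0.57 for Col4a1 (adjusted p = 0.285, limma) and 0.58 for Col4a2 (adjusted p = 0.274, limma). Col4a3 (0.40), Col4a4 (0.14) and Col4a5 (0.39) did not pass either (limma, adjusted p 0.520 to 0.801). Col4a1 and Col4a2 fell with ATG in nondiabetic mice by 0.71 and 0.75 (limma, adjusted p = 0.0241 and 0.020). For Col4a3, Col4a4 and Col4a5 that change was −0.50, −0.26 and −0.41, without passing (limma, adjusted p 0.166 to 0.326).

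Actin, adhesion and small GTPase regulators were the largest of the groups of called genes formed after the values were seen, with 16 genes. The lists for these functions gave fewer calls, since many of the 16 are in no list. Of 38 integrin and matrix adhesion genes, 2 passed (Itga8 and Vcl), with a median of 0.24, and of 0.13 with the tubule covariate. Of 47 actin regulators, 1 passed (Flna), with a median of 0.13.

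Coro2a encodes a coronin, an actin-binding WD repeat protein (chromosome 4 of mm10, 46536937 to 46566440). It had the lowest p of all genes and shared its adjusted p with Dock10, Pla2g4a, Scarf2 and Lrp1. Its values were 10.78, 10.75 and 10.84 in Con_DMSO and 10.22, 10.07 and 9.81 in Con_ATG mice. In diabetic mice they were 10.18, 10.41 and 10.47 with vehicle and 11.05, 11.18 and 10.93 with ATG. Both arms were free of overlap and opposite in order, with a change of −0.75 in nondiabetic mice (adjusted p = 0.00825, limma) and of 0.70 in diabetic mice, which did not pass (adjusted p = 0.248, limma). The interaction was 1.46 (standard error 0.16, adjusted p = 0.00683, limma) and stayed between 1.35 and 1.55 without any 1 mouse. In an exact permutation test that shuffled treatment within each diabetes state, two-sided, p was 0.005, the smallest that 400 arrangements allow. That value follows from arms free of overlap in opposite order. The gene was also picked on these same values, so the test adds no support.

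Vcl (vinculin, which couples integrin adhesions to actin, chromosome 14, 20929433 to 21033673) stood at 12.71, 12.65 and 12.77 in Con_DMSO and 11.92, 12.07 and 11.76 in Con_ATG mice. It stood at 12.88, 12.93 and 12.95 in DM_DMSO and 12.88, 12.89 and 13.04 in DM_ATG mice. The diabetic groups overlapped (change 0.02), and both lay above the vehicle-treated nondiabetic mice. Its interaction was 0.81 (standard error 0.12, adjusted p = 0.0272, limma).

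Flna (filamin A, an actin crosslinker, chromosome X, 74223461 to 74246534) was the most deeply read of these, with 5290 to 17864 reads per mouse. Its values were 13.72, 14.11 and 14.04 in Con_DMSO, 13.14, 13.05 and 12.72 in Con_ATG, 14.08, 14.002 and 14.12 in DM_DMSO and 14.10, 14.03 and 14.15 in DM_ATG mice (interaction 1.01, standard error 0.18, adjusted p = 0.0455, limma). The Con_ATG mice lay apart below, and the diabetic groups overlapped within a narrow range.

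The promoters of these 3 genes are shown because their genes encode actin-binding proteins of the called group. Each runs from 250 bases before to 50 bases after an annotated start (RefSeq, GRCm38.p6), in the direction of transcription. Capitals mark letters that match a CArG box, the motif of serum response factor, or CATTCC, the core motif of TEAD factors, on either strand. The CArG box is the run of 10 capitals at the start of the Vcl promoter.
Coro2a, chr4:46566391-46566690, minus strand: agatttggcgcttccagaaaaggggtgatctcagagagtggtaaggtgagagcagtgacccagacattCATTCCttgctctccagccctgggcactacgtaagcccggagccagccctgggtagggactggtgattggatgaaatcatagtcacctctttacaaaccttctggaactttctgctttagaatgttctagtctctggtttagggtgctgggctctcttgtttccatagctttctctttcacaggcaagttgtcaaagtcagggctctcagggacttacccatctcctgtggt
Vcl, chr14:20929148-20929447, plus strand: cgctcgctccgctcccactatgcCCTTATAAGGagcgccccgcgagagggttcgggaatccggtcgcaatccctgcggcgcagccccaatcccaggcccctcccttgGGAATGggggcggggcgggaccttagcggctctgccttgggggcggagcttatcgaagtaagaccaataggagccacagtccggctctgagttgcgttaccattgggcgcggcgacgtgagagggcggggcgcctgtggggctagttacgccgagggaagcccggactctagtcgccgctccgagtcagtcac
Flna, chrX:74246485-74246784, minus strand: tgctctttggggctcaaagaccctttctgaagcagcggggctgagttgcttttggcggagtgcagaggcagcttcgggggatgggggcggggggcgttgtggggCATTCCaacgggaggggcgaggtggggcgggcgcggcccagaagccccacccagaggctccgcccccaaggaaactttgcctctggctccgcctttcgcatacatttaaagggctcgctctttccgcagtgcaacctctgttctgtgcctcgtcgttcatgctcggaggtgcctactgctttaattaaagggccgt
Promoters were found for 57 of the 77 called genes and for 11151 of all listed genes. A CArG box was in 3 of the 57 (Vcl, Myom1 and Robo1, 5.26%) and in 1.64% of all 11151. CATTCC was in 14 of the 57 (24.6%) and in 14.8% of all. The motifs were chosen after the called genes were known, and a match describes letters in this window only.

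Dock10, a guanine nucleotide exchange factor for small GTPases (chromosome 1, 80501068 to 80665352), was at 10.16, 9.95 and 10.19 in Con_DMSO, 9.21, 9.29 and 9.15 in Con_ATG, 9.64, 9.79 and 9.86 in DM_DMSO and 9.93, 10.16 and 10.12 in DM_ATG mice. Vehicle-treated diabetic mice lay between the nondiabetic groups, and the ATG-treated ones near the nondiabetic vehicle level. Its interaction was 1.19 (standard error 0.13, adjusted p = 0.00683, limma).

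Arhgef25, a guanine nucleotide exchange factor (chromosome 10, 127182521 to 127190054), was at 8.80, 8.88 and 8.86 in Con_DMSO, 7.99, 7.95 and 7.74 in Con_ATG, 8.89, 8.77 and 8.86 in DM_DMSO and 8.70, 8.94 and 8.93 in DM_ATG mice. Outside Con_ATG, the 9 mice shared one narrow range. The interaction was 0.97 (standard error 0.14, adjusted p = 0.0251, limma).

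Rapgef2, an exchange factor for Rap GTPases (chromosome 3, 79062511 to 79145875), was at 11.27, 11.16 and 11.17 in Con_DMSO, 10.67, 10.85 and 10.56 in Con_ATG, 10.91, 11.03 and 11.11 in DM_DMSO and 11.28, 11.42 and 11.53 in DM_ATG mice. It was apart in both arms, in opposite order, with an interaction of 0.90 (standard error 0.13, adjusted p = 0.0272, limma). Of the rest of the group, Mcf2l (1.22), Frmd3 (1.36) and Rasgrp2 (1.16), chosen after their values were seen, had diabetic changes of 0.78, 0.79 and 0.42 beside nondiabetic ones of −0.44, −0.57 and −0.75. For Mcf2l and Frmd3 the diabetic change was the larger in size. Of the 16 genes, 10 passed with the tubule covariate, with a median interaction of 0.99 without and 0.96 with it.

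**Figure D4:**
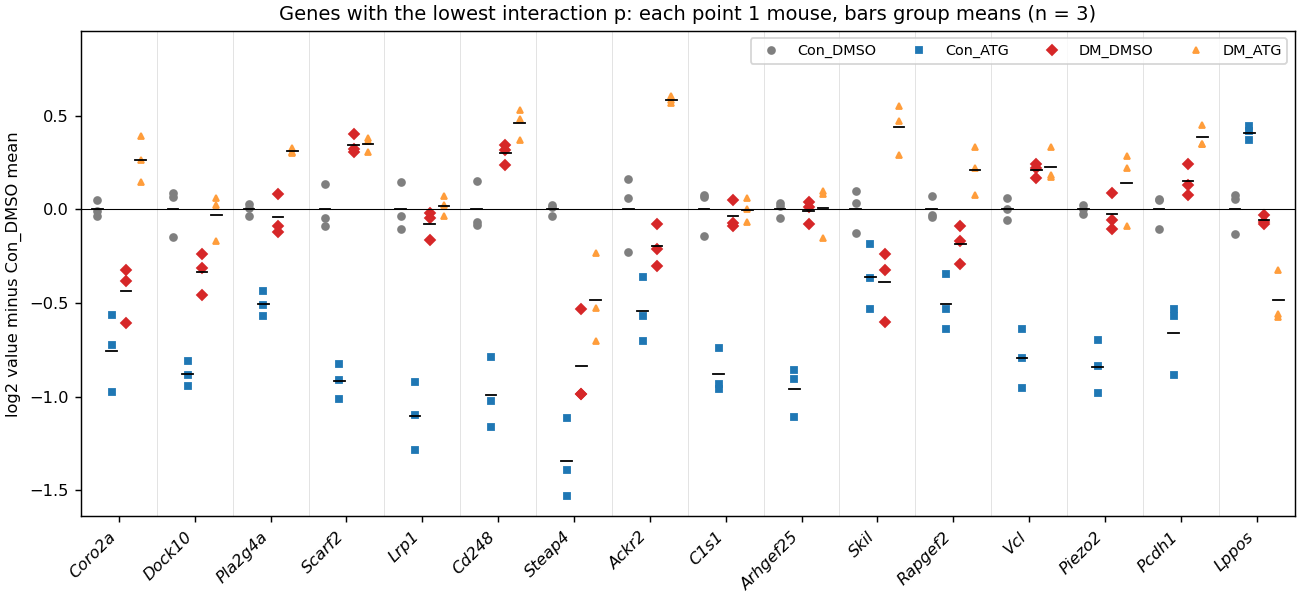
Log2 value of each mouse minus the Con_DMSO mean (vertical axis) for the 15 positive genes of lowest p and Lppos, with group means as bars (n = 3). Con_ATG mice (squares) lie below the vehicle-treated nondiabetic mice in every positive gene, while DM_ATG mice (triangles) lie from about their vehicle level to clearly above it.

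Several genes of lowest p encode scavenger or chemokine receptors or a lipid enzyme, a group formed after the values were seen. Pla2g4a, the cytosolic phospholipase A2 that releases arachidonic acid (chromosome 1, 149829619 to 149922439), was at 10.29, 10.25 and 10.32 in Con_DMSO and 9.78, 9.72 and 9.85 in Con_ATG mice. In diabetic mice it was at 10.37, 10.20 and 10.16 with vehicle and 10.59, 10.59 and 10.61 with ATG. The 3 DM_ATG mice, nearly equal to one another, were the highest of all, and the interaction was 0.86 (standard error 0.09, adjusted p = 0.00683, limma).

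Lrp1, a large endocytic receptor that also binds PDGF receptor beta (chromosome 10, 127538158 to 127621148), was at 11.94, 12.01 and 12.19 in Con_DMSO, 11.12, 10.95 and 10.76 in Con_ATG, 11.88, 11.998 and 12.03 in DM_DMSO and 12.01, 12.12 and 12.07 in DM_ATG mice. It fell by 1.10 with ATG in nondiabetic mice (adjusted p = 0.00125, limma), and the diabetic groups overlapped. The interaction was 1.20 (standard error 0.14, adjusted p = 0.00683, limma).

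Scarf2, a scavenger receptor family gene (chromosome 16, 17797282 to 17808293), was at 10.65, 10.69 and 10.88 in Con_DMSO, 9.83, 9.92 and 9.73 in Con_ATG, 11.14, 11.05 and 11.06 in DM_DMSO and 11.10, 11.12 and 11.05 in DM_ATG mice. Its diabetic groups were nearly equal (0.01) and above the nondiabetic vehicle mice, so that the interaction of 0.92 (standard error 0.10, adjusted p = 0.00683, limma) was of the size of the nondiabetic fall.

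Ackr2, a decoy receptor that takes up inflammatory chemokines (chromosome 9, 121898355 to 121911071), showed the reverse weighting. It was at 8.81, 8.71 and 8.43 in Con_DMSO, 8.08, 8.29 and 7.95 in Con_ATG, 8.57, 8.35 and 8.44 in DM_DMSO and 9.23, 9.25 and 9.22 in DM_ATG mice. The DM_ATG mice stood above the other 9, and the diabetic difference of 0.78 (adjusted p = 0.248, limma) was larger than the nondiabetic one of −0.54. The interaction was 1.33 (standard error 0.17, adjusted p = 0.0126, limma), on 194 to 586 reads per mouse.

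Steap4, a metalloreductase (chromosome 5, 7960472 to 7982213), had the largest interaction of the called genes. Its values were 10.80, 10.85 and 10.86 in Con_DMSO, 9.45, 9.72 and 9.30 in Con_ATG, 9.85, 9.85 and 10.30 in DM_DMSO and 10.13, 10.60 and 10.31 in DM_ATG mice. All 3 other groups lay below the vehicle-treated nondiabetic mice, and the diabetic groups overlapped (interaction 1.69, standard error 0.21, adjusted p = 0.0126, limma). Abcb1a, a drug efflux pump of endothelium, passed with 0.89 (adjusted p = 0.0455, limma), as the single call among 31 xenobiotic metabolism genes, whose median was −0.31. That median turned to 0.091 with the tubule covariate, with no call, and ran from −0.65 (without DM_DMSO mouse 3) to −0.013 (without Con_ATG mouse 1) with 1 mouse left out.

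Of the complement genes, 3 that passed were grouped after their values were seen. C1s1, which encodes the C1s protease (chromosome 6, 124530344 to 124542359), was at 10.70, 10.91 and 10.92 in Con_DMSO, 10.10, 9.91 and 9.89 in Con_ATG, 10.89, 10.76 and 10.77 in DM_DMSO and 10.90, 10.78 and 10.85 in DM_ATG mice. Its interaction was 0.91 (standard error 0.12, adjusted p = 0.0126, limma), with the Con_ATG mice below the rest. C1ra, for the partner protease C1r, had 0.60 (adjusted p = 0.0493, limma), and Serping1, for the inhibitor of both, had 0.73 (adjusted p = 0.0443, limma). Their diabetic changes were −0.01 to 0.04. The C1q chain genes C1qa (−0.17), C1qb (0.01) and C1qc (0.06) and the central component gene C3 (−0.07) did not pass (limma, adjusted p 0.915 to 0.994).

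Endothelial genes were lowest in Con_ATG mice too. Of 29 listed genes of glomerular endothelium, 3 passed (Sox17, Sox18 and Gata5), all positive, 22 had an unadjusted p under 0.05, and all 29 were above 0, with a median of 0.63. The list mean was 12.50, 12.64 and 12.59 in Con_DMSO, 11.94, 12.27 and 11.55 in Con_ATG, 13.02, 12.94 and 13.08 in DM_DMSO and 13.07, 13.05 and 13.004 in DM_ATG mice. The groups of diabetic mice overlapped, and both lay above the nondiabetic mice.

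Sox17 and Sox18, together with Sox7, are the SOXF transcription factors of vascular endothelium, and all 3 passed. Sox18 was at 11.66, 11.61 and 11.83 in Con_DMSO, 10.83, 11.35 and 11.05 in Con_ATG, 12.04, 12.29 and 12.06 in DM_DMSO and 12.38, 12.55 and 12.42 in DM_ATG mice, apart in both arms (interaction 0.94, adjusted p = 0.0455, limma). Sox17 had an interaction of 0.90 (adjusted p = 0.0455, limma) with overlapping diabetic groups. Sox7, named after its value was seen, had 1.09 (adjusted p = 0.0363, limma). The zinc finger factor gene Gata5 had 1.05 (adjusted p = 0.0476, limma). None of the 3 endothelial list genes passed with the tubule covariate (limma, adjusted p 0.0665 to 0.0729), while their interactions stayed at 0.88 to 1.02.

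The VEGF and angiopoietin receptor genes Kdr (0.67, adjusted p = 0.251), Flt1 (0.80, adjusted p = 0.199) and Tek (1.00, adjusted p = 0.0878) did not pass in limma. Pcdh1, a protocadherin gene that passed, was at 11.31, 11.47 and 11.46 in Con_DMSO, 10.88, 10.85 and 10.53 in Con_ATG, 11.49, 11.55 and 11.66 in DM_DMSO and 11.77, 11.87 and 11.76 in DM_ATG mice (interaction 0.89, standard error 0.13, adjusted p = 0.0304, limma). It was apart in both arms, in opposite order.

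In the TGF-beta list, 2 of 28 genes passed, Skil and Id1, both positive. Skil (SnoN, a repressor of SMAD signalling, chromosome 3, 31095058 to 31122923) was at 11.18, 11.25 and 11.02 in Con_DMSO and 10.78, 10.97 and 10.62 in Con_ATG mice. In diabetic mice it was at 10.55, 10.91 and 10.83 with vehicle and 11.70, 11.62 and 11.44 with ATG. Its diabetic difference of 0.82 was the larger arm, with all DM_ATG mice above the other 9, and the nondiabetic change of −0.36 did not pass (adjusted p = 0.0861, limma). The interaction was 1.19 (standard error 0.17, adjusted p = 0.0251, limma).

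Id1, a target of BMP signalling that blocks basic helix-loop-helix factors, was at 11.75, 11.63 and 11.88 in Con_DMSO, 11.27, 11.31 and 10.82 in Con_ATG, 12.22, 12.35 and 12.33 in DM_DMSO and 12.59, 12.79 and 12.59 in DM_ATG mice (interaction 0.98, standard error 0.17, adjusted p = 0.0455, limma). The groups were ordered Con_ATG, Con_DMSO, DM_DMSO and DM_ATG from low to high without overlap. The inhibitory SMAD genes had 1.29 for Smad6 (adjusted p = 0.0704, limma) and 0.66 for Smad7 (adjusted p = 0.261, limma) without passing. Among ligands, Tgfb1 had 0.44 and Tgfb3 1.01 (adjusted p = 0.273 and 0.121, limma). The list median was 0.37, with 14 genes at an unadjusted p under 0.05.

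Podocyte genes leaned the same way with more spread. Of 34 listed podocyte genes, 33 were above 0 with a median of 0.50, but 1 passed, Pla2r1, the phospholipase A2 receptor gene, and 3 had an unadjusted p under 0.05. Pla2r1 was at 10.80, 10.72 and 10.87 in Con_DMSO, 10.08, 10.24 and 9.84 in Con_ATG, 11.02, 10.82 and 11.01 in DM_DMSO and 10.96, 10.96 and 10.94 in DM_ATG mice (interaction 0.75, standard error 0.14, adjusted p = 0.0455, limma). The slit diaphragm gene Nphs1 had 0.52 (adjusted p = 0.549, limma). The podocyte list mean was 13.09, 13.71 and 12.69 in the Con_ATG mice against 13.79, 13.78 and 13.67 in Con_DMSO mice, so Con_ATG mouse 2 stood at the vehicle level and mouse 3 farthest below. Without 1 mouse, the list median ran from 0.26 (without Con_ATG mouse 3) to 0.81 (without Con_ATG mouse 2). With the tubule covariate it was 0.29, and no member passed.

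**Figure D5:**
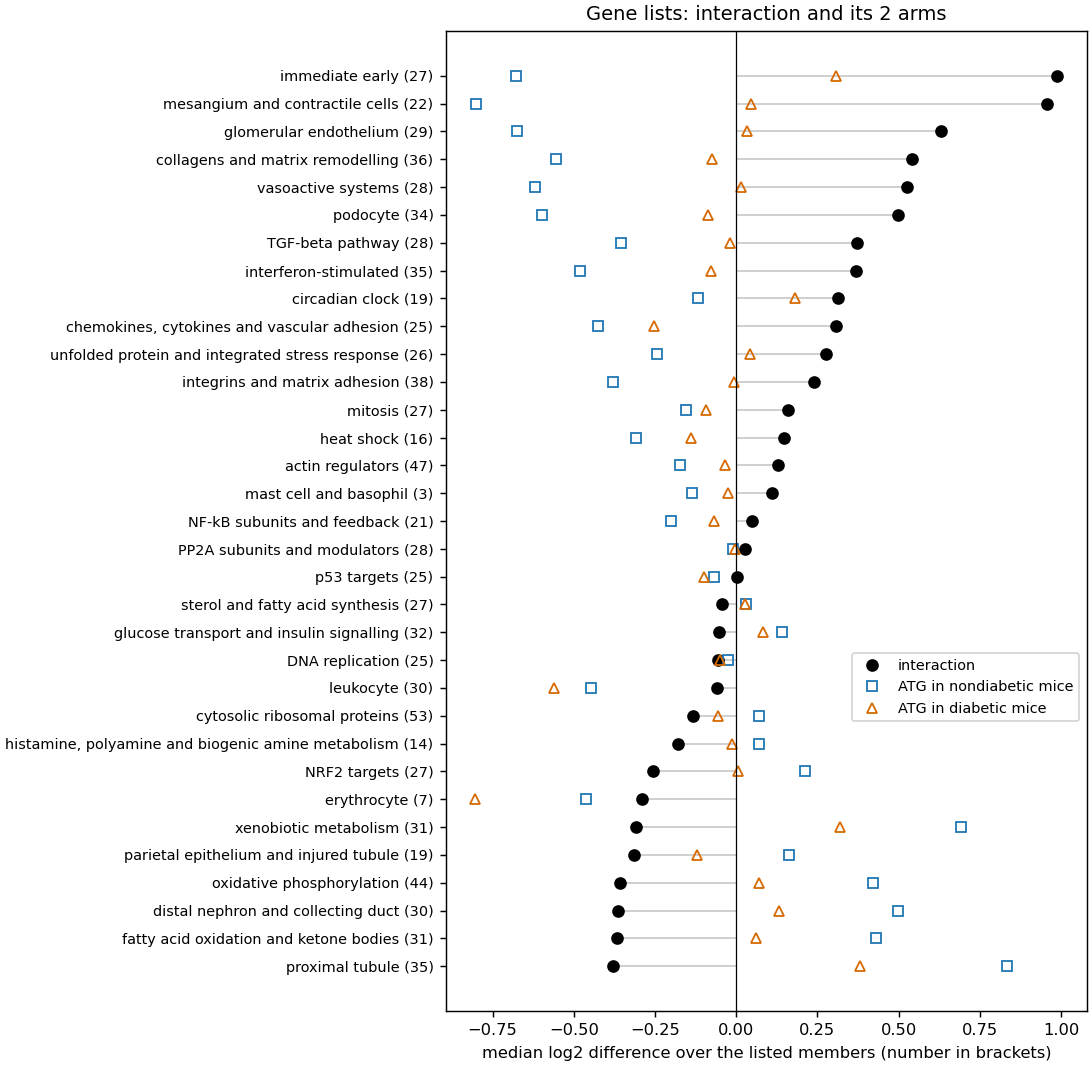
Median over the listed members of each gene list (numbers of members in brackets) of the interaction (filled circles) and of the ATG effect in nondiabetic (squares) and diabetic mice (triangles), on the log2 scale. The immediate early and mesangium lists have the highest medians, 0.99 and 0.96, and the proximal tubule list the lowest, −0.38.

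No gene of the proposed target passed. Among 28 PP2A subunits and modulators, 1 had an unadjusted p under 0.05 in limma and none passed by limma-voom, and the interactions ran from −0.51 to 0.32 with a median of 0.03. The catalytic subunit genes Ppp2ca and Ppp2cb had 0.00 and 0.09 (standard errors 0.08 and 0.13), and the scaffold genes Ppp2r1a and Ppp2r1b had 0.02 and −0.07 (standard errors 0.07 and 0.13). The members with the lowest p were Ppp2r3a, a regulatory subunit gene (−0.51, adjusted p = 0.381, limma), and Lcmt1, the methyltransferase of the catalytic subunit (−0.27, adjusted p = 0.405, limma). These mRNA values do not speak to phosphatase activity. A few adhesion and actin genes were named because the study followed them. None passed, with interactions of 0.21 for Rapgef5, 0.07 for Itgb7, −0.16 for Wash1, −0.52 for Was, 0.22 for Zyx and −0.01 for Dbn1 (limma, adjusted p 0.363 to 0.991). The interaction of Itgb7 was so near 0 that its sign depended on which mice and covariates entered. The study reported several of the genes it followed as changed by ATG in diabetic mice, which is the diabetic arm and not the interaction. That arm was −0.20 for Rapgef5, −0.27 for Itgb7, −0.19 for Wash1, −0.53 for Was, −0.24 for Zyx and 0.15 for Dbn1. None passed there (limma, adjusted p 0.917 to 0.9997). Of 21 NF-kB subunit and feedback genes, none passed (limma, 5 at an unadjusted p under 0.05, and 0 by limma-voom), with a median of 0.05.

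Immediate early genes had the highest median of the 33 lists, 0.99, and no call by limma or limma-voom (8 of 27 at an unadjusted p under 0.05). The list mean was 11.34, 10.57 and 9.69 in the Con_ATG mice and 10.98, 11.22 and 11.42 in the Con_DMSO mice, so the spread within Con_ATG was wider than the gap between the groups. Klf4 came closest to passing (1.54, adjusted p = 0.072, limma), while Fosb (2.60, standard error 1.07) and Egr1 (1.85, standard error 0.84), chosen after their values were seen, had larger but less certain differences. Without 1 mouse the list median ran from 0.57 (without Con_ATG mouse 3) to 1.31 (without Con_ATG mouse 1).

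Tubule and mitochondrial genes leaned to the other side without any call. All 35 proximal tubule genes were below 0 (median −0.38) and so were all 44 oxidative phosphorylation genes (median −0.36), with 29 of 30 distal nephron genes (median −0.36) and 30 of 31 fatty acid oxidation genes (median −0.37). In limma and limma-voom none of these passed, and 3 fatty acid oxidation genes had an unadjusted p under 0.05. With the tubule covariate, which contains both tubule lists, the medians were 0.01 for the proximal and −0.02 for the distal list, −0.17 for oxidative phosphorylation and −0.19 for fatty acid oxidation. These medians also moved with single mice. That of the distal nephron list ran from −0.73 (without DM_DMSO mouse 3) to 0.0052 (without DM_DMSO mouse 2), so its sign was lost without that mouse. The proximal tubule median ran from −0.69 (without DM_DMSO mouse 3) to −0.15 (without Con_DMSO mouse 2). The oxidative phosphorylation median ran from −0.55 (without DM_DMSO mouse 3) to −0.17 (without DM_DMSO mouse 2), and that of fatty acid oxidation from −0.53 (without DM_DMSO mouse 3) to −0.26 (without DM_DMSO mouse 2). The leukocyte list had a median of −0.06 and no call by limma or limma-voom (0 at an unadjusted p under 0.05), with median ATG effects of −0.45 in nondiabetic and −0.56 in diabetic mice and no member past the threshold in either.

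Among negative interactions, a single gene passed. Lppos, a transcript opposite the Lpp gene (chromosome 16, 24392556 to 24393655), was that gene. It was at 7.42, 7.24 and 7.45 in Con_DMSO, 7.79, 7.74 and 7.82 in Con_ATG, 7.30, 7.29 and 7.34 in DM_DMSO and 6.80, 7.05 and 6.81 in DM_ATG mice. The Con_ATG mice were the highest and the DM_ATG mice the lowest, with an interaction of −0.84 (standard error 0.15, adjusted p = 0.0455, limma). It had 103 to 191 reads per mouse. With the tubule covariate it had −0.81 and did not pass (adjusted p = 0.0729, limma).

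The negative genes of next lowest p, of which 8 are described, did not pass (limma, adjusted p 0.0606 to 0.123). Coa6, an assembly factor of cytochrome c oxidase, was at 9.40, 9.28 and 9.34 in Con_DMSO, 9.68, 9.62 and 9.68 in Con_ATG, 9.29, 9.32 and 9.15 in DM_DMSO and 9.15, 8.998 and 9.04 in DM_ATG mice (interaction −0.51, adjusted p = 0.0606, limma). Nubpl, an assembly factor of complex I, was at 8.49, 8.61 and 8.61, 8.88, 8.87 and 9.11, 8.57, 8.50 and 8.48 and 8.33, 8.36 and 8.44 in the same order of groups (−0.52, adjusted p = 0.0920, limma). Tfb2m, a mitochondrial transcription factor, was at 10.31, 10.29 and 10.32, 10.64, 10.57 and 10.71, 10.19, 10.16 and 9.99 and 10.08, 10.07 and 10.09 (−0.37, adjusted p = 0.123, limma). These 3 mitochondrial genes shared a form, with Con_ATG mice above all other mice and DM_ATG mice at or below their vehicle level.

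Poc1a, a centriole gene, was at 6.83, 6.67 and 6.59, 7.32, 7.37 and 7.42, 7.13, 7.01 and 6.78 and 6.71, 6.79 and 6.96 in the same group order (−0.83, adjusted p = 0.0725, limma). Asb9, a ubiquitin ligase adaptor, was at 8.08, 7.80 and 8.19, 8.90, 8.69 and 9.08, 6.93, 7.49 and 7.0 and 7.13, 7.12 and 6.97 (−0.93, adjusted p = 0.121, limma). Asb9 was far lower in both diabetic groups, which overlapped.

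Nxt2, which acts in mRNA export, was at 10.15, 10.12 and 10.31, 10.56, 10.44 and 10.54, 9.93, 9.89 and 9.99 and 9.81, 9.89 and 9.85 (−0.41, adjusted p = 0.0955, limma). Borcs7, a subunit of the lysosome-positioning BORC complex, was at 8.997, 8.96 and 9.0, 9.23, 9.23 and 9.41, 9.05, 9.01 and 8.98 and 8.91, 8.92 and 8.92 (−0.40, adjusted p = 0.107, limma). Mfsd3, a putative solute carrier, was at 7.42, 7.41 and 7.42, 7.82, 7.59 and 7.93, 7.58, 7.77 and 7.67 and 7.49, 7.44 and 7.29 (−0.63, adjusted p = 0.116, limma). In all 8, Con_ATG mice lay above Con_DMSO mice without overlap.

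At the threshold, Zdhhc14 was the last gene inside (0.96, adjusted p = 0.0494, limma) and Bcor the first outside (0.63, adjusted p = 0.0518, limma), both positive. The 77 genes lay on 19 chromosomes with at most 8 on any one, and 74 had at least 100 reads in every mouse.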

How the data were processed

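For each mouse the authors deposited 1 log2 value per gene (build mm10 and the tool limma are named in the submitters' processing notes). Aligner, counting program and normalization are not given in the sources used here. The values were checked to be log2 of reads multiplied by one factor per library, since dividing by a step of 1.00 to 1.27 gave whole reads for 83.7% to 84.3% of the values below 2000 reads (within 0.02 reads). Libraries were grouped by their condition label. The 4 group means were fitted to the log2 values of all 12 mice with limma 3.58.1 in R 4.3.3, letting the prior variance follow the mean and without a further filter, and p-values were Benjamini-Hochberg adjusted over 14096 genes. Median standard error was 0.17 for the interaction and 0.12 for either ATG effect. Symbols are used as deposited, and positions are 1-based on mm10. The test was checked on simulated data.

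Named were the 15 called genes of lowest p in each direction (10 by p where fewer than 10 were called), up to 4 called members of each of 33 lists (or 2 of lowest p), Rapgef5, Itgb7, Wash1, Was, Zyx, Dbn1, Nos3 and PP2A genes. Of these, 1 gene is not reported here. Members, lists and comparisons were chosen with earlier results of these data known, and functional groups of called genes after their values were seen. Lists were described by counts and medians, without a test, and the members of a list are not independent replicates. Exact permutation tests of single genes shuffled treatment within diabetic and within nondiabetic mice (400 arrangements, two-sided). Promoters came from RefSeq (GRCm38.p6). Alternatives were median-ratio scaling, limma-voom on recovered reads, a minimum of 100 on the linear scale in every mouse, other prior variances, the tubule marker mean as a covariate, a replicate block, mice left out and other thresholds. Plots used matplotlib 3.10.9 under Python 3.11.15.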

Additional observations from a re-analysis of the deposited data

Results flagged for a closer look

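The effect of ATG differed between diabetic and nondiabetic mice, by the test of the difference itself (limma, adjusted p under 0.05), in 77 genes, of which 31 are named by the rule given above. Their log2 interactions are listed here by function. Among actin and small GTPase regulators they were Coro2a (1.46), Dock10 (1.19), Arhgef25 (0.97), Rapgef2 (0.90), Vcl (0.81) and Flna (1.01). Among genes of mesangial cells, pericytes and cyclic GMP signalling they were Cd248 (1.15), Itga8 (1.34), Pdgfrb (1.03), Art3 (0.99), Piezo2 (1.00) and Gucy1b3 (1.10). Matrix genes were Col6a3 (0.90), Col12a1 (0.83), Nid1 (0.95) and Adamts10 (0.62). Endothelial factors and a protocadherin were Sox17 (0.90), Sox18 (0.94), Gata5 (1.05) and Pcdh1 (0.89). Receptors, lipid and transport genes and a complement protease were Pla2g4a (0.86), Scarf2 (0.92), Lrp1 (1.20), Steap4 (1.69), Ackr2 (1.33), Abcb1a (0.89) and C1s1 (0.91). TGF-beta feedback and podocyte genes were Skil (1.19), Id1 (0.98) and Pla2r1 (0.75). The single negative gene was Lppos (−0.84). With 3 mice per group no mouse was tested as an outlier. Whether tubule content, transcript length or the label batch bears on these differences was not tested beyond the values given above.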

How the results depend on the processing

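The count of 77 interaction genes was 64 to 89 with median-ratio scaling, limma-voom, a robust prior variance or a minimum of 100 in every mouse. It was 19 without a trend in the prior variance, 38 with mean tubule marker level as a covariate, 6 without both unnumbered nondiabetic mice, 215 at an adjusted p under 0.1 and 1812 at an unadjusted p under 0.05. With 1 mouse left out it ran from 6 to 770. The 736 genes for ATG in nondiabetic mice became 44 with the tubule covariate and 8 without both unnumbered mice. With 1 mouse left out they ran from 60 (without Con_DMSO mouse 2) to 3531 (without Con_ATG mouse 2), and were 1420 without DM_DMSO mouse 3. ATG in diabetic mice gave 0 genes under each of these fits. The causes were not tested. All 76 positive genes stayed positive in the 20 alternative fits, which share most of the mice the genes were chosen on. The interaction of Itgb7 turned to −0.0489 without the unnumbered mice, to −0.0203 with the tubule covariate, and ran from −0.0656 (without Con_ATG mouse 1) to 0.2871 (without Con_ATG mouse 2) with 1 mouse left out, below 0 also without Con_ATG mouse 3 or DM_ATG mouse 3. By the exact permutation test, which uses the same values and adds no support, 9 of the 77 genes had a p of 0.05 or more. The 9 negative genes that were named for their low p without passing in limma had p under 0.05 before any adjustment. The estimate of weights per library stopped before it converged, so that alternative gave no usable value.

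With the number in the mouse labels as a replicate block, and the 2 mice without a number forming another block, 8 genes passed for the interaction (Ackr2, Col12a1, Coro2a, Dock10, Pla2g4a, Rapgef2, Skil and Steap4), all among the 77, 946 for ATG in nondiabetic mice and 0 in diabetic mice. Deviations from the group means correlated over 0.1 in 5 of 13 same-numbered pairs (range −0.59 to 0.34), so the numbers were not taken to pair the mice. Within a diabetes state, 7 of the 10 numbered mice, not every one, deviated most like the same-numbered mouse of the other treatment, which is a hint from the data, not the design. The calls lost under the block are not a measure of a smaller effect. Precision is limited by 3 mice per group and, for Lppos, Pianp and Trpc4, by fewer than 200 reads in every mouse.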

Other observations

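Lists not described so far held no called gene by limma or limma-voom. Interferon-stimulated genes had a median interaction of 0.37, with 30 of 35 above 0 and 9 at an unadjusted p under 0.05. Usp18, which restrains interferon signalling, had 0.83 (adjusted p = 0.217, limma) and Ifi35 had 0.37 (adjusted p = 0.249, limma). Chemokine, cytokine and vascular adhesion genes had a median of 0.31 (0.16 without Con_ATG mouse 3 to 0.35 without Con_ATG mouse 2), with 6 of 25 at an unadjusted p under 0.05. The B cell chemokine gene Cxcl13 came nearest to passing among them (1.16, adjusted p = 0.0583, limma), and the TNF receptor gene Tnfrsf1a had 0.31 (adjusted p = 0.202, limma). The NF-kB genes of lowest p were Nfkbib (−0.39, adjusted p = 0.156, limma) and Ikbkb (0.49, adjusted p = 0.218, limma).

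Clock genes had a median of 0.31 and Nr1d1 0.59 (adjusted p = 0.292, limma). Stress response lists had medians of 0.28 for the unfolded protein response, 0.15 for heat shock, −0.26 for NRF2 targets and 0.00 for p53 targets. The unfolded protein median ran from 0.15 (without Con_ATG mouse 3) to 0.37 (without Con_ATG mouse 2) with 1 mouse left out. With the tubule covariate the NRF2 median was −0.15. Proliferation lists had 0.16 for mitosis and −0.05 for DNA replication. With 1 mouse left out, the mitosis median ran from 0.021 (without DM_DMSO mouse 1) to 0.25 (without DM_ATG mouse 1). Metabolic lists had −0.05 for glucose transport and insulin signalling, −0.04 for sterol and fatty acid synthesis and −0.18 for amine and polyamine metabolism. The amine and polyamine median ran from −0.26 (without Con_DMSO mouse 3) to −0.095 (without DM_ATG mouse 3) with 1 mouse left out. Cytosolic ribosomal protein genes had −0.13, with all 53 below 0. The insulin signalling gene Pik3r1 had 0.32 (adjusted p = 0.184, limma), while the thioredoxin-interacting protein relative Arrdc4 had −0.48 (adjusted p = 0.197, limma), with most of the difference in its diabetic arm (−0.43). Parietal epithelium and injury genes had −0.32, erythrocyte genes −0.29 over 7 genes, and mast cell genes 0.11 over 3 genes, of which Gata2 had 0.67 (adjusted p = 0.123, limma). With the tubule covariate the parietal and injury median was 0.025, and with 1 mouse left out it ran from −0.69 (without DM_DMSO mouse 3) to −0.027 (without DM_DMSO mouse 2). The erythrocyte median was −0.56 with the covariate and ran from −1.02 (without DM_DMSO mouse 2) to −0.0051 (without DM_DMSO mouse 1). With 1 mouse left out, the medians of the mast cell, heat shock, p53, DNA replication, sterol and glucose transport lists, as well as those of the leukocyte and NF-kB lists, took either sign.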
